A study of Mus musculus with 4 samples.

Results

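Scavenger receptors, the fatty acid handling proteins of the endothelium and the vascular surface receptor Cd300lg form the group of 10 genes described here. They were chosen by symbol: Cd300lg, Cd36, Scarb1, Scarf1, Olr1, Stab1, Fabp4, Fabp5, Gpihbp1 and Pparg. All 10 had a row in the deposited table of 27179 genes. Total RNA of the murine aortic endothelial line mAEC was sequenced in 2 groups of 2 libraries, described by the series as biological replicates. The control group was kept in normal medium. The conditioned medium group received the supernatant of TNFα+CD68+ macrophages, TNFα being a cytokine of inflammation and CD68 a protein typical of macrophages. The labels name no strain, passage, dose or length of exposure, and nothing in them says that the replicates came from separate cultures. The p-values below therefore measure the spread between these libraries only. With 2 libraries a group, the spread of each gene was estimated largely from that of the other genes tested.

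Endothelial cells meet circulating lipid first. Scavenger receptors bind modified lipoproteins, dying cells and other ligands and carry them inward. GPIHBP1 holds lipoprotein lipase on the luminal surface of capillaries, where triglycerides are cut. The released fatty acids can enter through CD36 and are carried in the cytoplasm by FABP4 and FABP5, and PPARγ is a nuclear receptor that senses fatty acids and controls genes of their uptake and storage.

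Library totals ran from 13815695 to 18005840 counts, so that 3 counts equalled 0.167 to 0.217 CPM (counts scaled to a common library size), a limit that covers counting error only. The line carried endothelial markers, with 11 of 12 above the count filter and Pecam1 at 2415 CPM in control, while Vwf stood at 2.90 CPM and Cldn5 at 1 count at most. Of 9 large artery markers 6 were below the filter, Gja5 and Sox17 at 0 counts in all 4 libraries. The artery markers that passed it, Dll4, Efnb2 and Fbln5, stood at 107, 83.0 and 11.3 CPM in control. Lyve1, a hyaluronan receptor of lymphatic and sinusoidal endothelium, stood at 2015 CPM in control. Prox1, the lymphatic master regulator, had 2 counts at most. Of 15 macrophage markers 3 were tested and 0 were called by edgeR or DESeq2, with 0 at an unadjusted p under 0.05. Adgre1 and Mrc1 had 0 counts throughout, and the 14 markers other than Cd68 summed to 10.3 to 12.1 CPM in control and 11.3 to 11.9 CPM in conditioned medium. Adipoq and Plin1, adipocyte genes, had 0 counts in all libraries. Smooth muscle and fibroblast markers summed to 35.7 to 39.1 CPM in control and 43.8 to 45.0 CPM in conditioned medium. Of these 1 of 4 tested was called (Pdgfra, log2 fold change 0.28), 6 were below the filter and Lum had 0 counts. Over all genes tested 16.8% were called. Pdgfra was not called by DESeq2, nor by edgeR without control replicate 1 or conditioned medium replicate 1 or 2 (adjusted p = 0.217, 0.0657, 0.121 and 0.192, with a lowest alternative of 0.00447). The part of these markers in the results below was not tested. These are bulk libraries, in which fewer cells expressing a gene and less RNA per cell cannot be told apart.

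Conditioned medium was accompanied by lower Cd300lg and Gpihbp1 and higher Stab1. Cd300lg was 1.996-fold lower, Gpihbp1 1.26-fold lower and Stab1 1.20-fold higher. Scarb1, Scarf1, Fabp4 and Pparg were not called, Olr1 lay just outside the threshold, and Cd36 and Fabp5 were barely detected in either group. By edgeR's quasi-likelihood test at an adjusted p of 0.05, 3 of the 8 genes that passed the count filter were called, 1 higher and 2 lower. Among all 13897 genes tested 16.8% were called, 8.53% higher and 8.23% lower. CPM values of the 2 groups were fully separate for 5 of the 8, of which 3 were higher and 2 lower. The same held for 57.2% of all genes tested, 28.5% higher and 28.8% lower. The median log2 fold change of the 8 was 0.05, against 0.00037 over all genes.

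**Figure D1:**
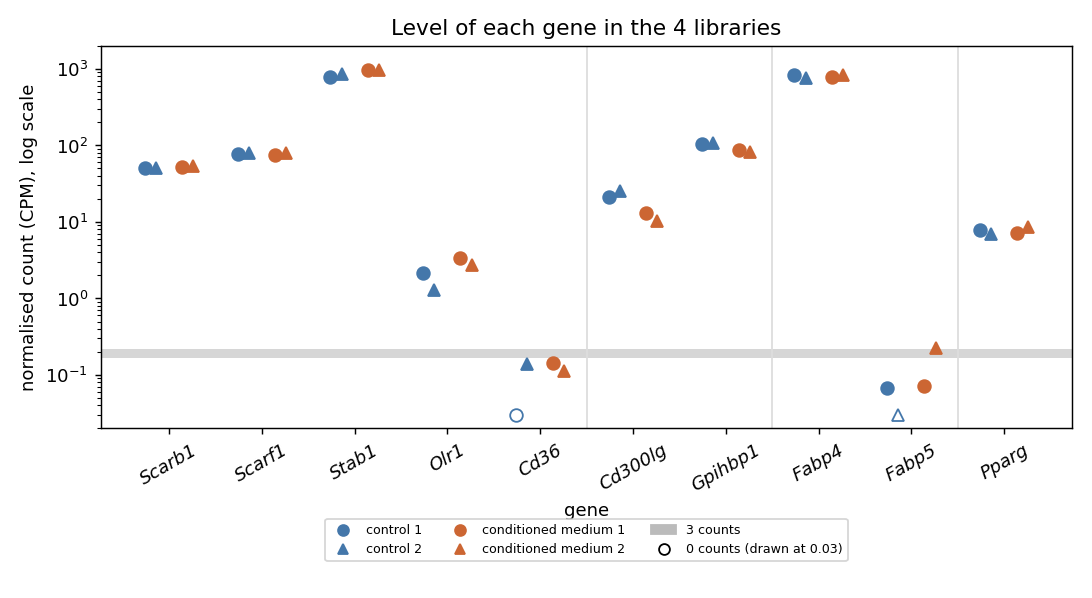
Normalised count in CPM (log axis) of each of the 10 genes in every library, with control in blue, conditioned medium in orange, and circles and triangles for replicates 1 and 2. The grey band marks 3 counts and, like the points of Cd36 and Fabp5, is scaled by library totals alone. Stab1 and Fabp4 lie between 761 and 982 CPM, Cd300lg separates by group, and Cd36 and Fabp5 lie at about 3 counts or below in all libraries.

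Levels between genes were compared per kilobase of the principal annotated transcript. In control Fabp4 stood highest, at 885 CPM per kilobase, above 99.7% of the 11968 genes with such a length. Gpihbp1 followed at 128 and Stab1 at 102 CPM per kilobase. Scarf1 stood at 26.9, Scarb1 at 20.04, Cd300lg at 9.89, Pparg at 4.20 and Olr1 at 0.486 CPM per kilobase. Neighbours in this order did not overlap between the control libraries. In conditioned medium Stab1, at 122 CPM per kilobase, stood above Gpihbp1, at 102, again without overlap. The order rests on the lengths used: over all annotated exons Fabp4 came to 177 CPM per kilobase in control, Stab1 to 79.3, Gpihbp1 to 41.5, Cd300lg to 8.504 and Scarb1 to 5.94.

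Among the scavenger receptors of the 10 genes Stab1 had the highest level per kilobase. It encodes stabilin-1, a large receptor that clears modified lipoproteins, apoptotic cells and matrix fragments, and spans 31139017 to 31168651 of chromosome 14 in the mm10 build, as all positions here. Its level was 780.0 and 851 CPM in the control libraries and 982 and 976 CPM in the conditioned medium libraries. Both conditioned medium values lay above both control values, and the controls were the more spread pair. The log2 fold change was 0.26 ± 0.05 (SE; edgeR adjusted p = 3.47e-04), with a 95% interval of 0.17 to 0.36. Without conditioned medium replicate 1 or 2 the spread came from the controls alone, and the call was lost at an almost equal size, 0.26 and 0.27 (edgeR adjusted p = 0.0617 and 0.0773). The lowest adjusted p of the 13 alternatives was 2.09e-22. Its exons share 112 bases, 1.09% of their length, with Nt5dc2 on the opposite strand, and the library kit does not mark strand. Stab2, which encodes the related stabilin-2 of sinusoids, stood at 8.44 ± 0.998 CPM in control and 9.46 ± 0.201 CPM in conditioned medium (mean ± SD, n = 2) and was not called (edgeR adjusted p = 0.488).

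Olr1 encodes LOX-1, the lectin-like receptor for oxidised low density lipoprotein (LDL) on endothelium, and lies on chromosome 6, 129479150 to 129507350. Its counts were low, 32 and 19 in control against 47 and 50 in conditioned medium, or 2.17 and 1.301 CPM against 3.39 and 2.77 CPM. The groups did not overlap, but the control libraries differed by 0.74 on the log2 scale, with a counting error of 0.42. The log2 fold change was 0.81 ± 0.28 and just missed the threshold (edgeR adjusted p = 0.0553), with a 95% interval of 0.22 to 1.402. Leaving out control replicate 1 raised it to 1.22 and gave a call (edgeR adjusted p = 0.0115), and leaving out control replicate 2 lowered it to 0.49 (0.320). A replicate block and a robust estimate of the spread also gave a call, (edgeR adjusted p = 0.0196 and 0.0395), and DESeq2 gave 0.341, the highest of its 13 alternatives.

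The windows before the starts of these 2 genes are shown because they were the receptors with higher values in conditioned medium for which RefSeq promoters of the GRCm38.p6 build were at hand. Each runs 250 bases up to the start, 5′ to 3′ on the minus strand, Stab1 at chr14:31168642-31168891 and Olr1 at chr6:129507166-129507415, with a motif match in capitals.
Stab1: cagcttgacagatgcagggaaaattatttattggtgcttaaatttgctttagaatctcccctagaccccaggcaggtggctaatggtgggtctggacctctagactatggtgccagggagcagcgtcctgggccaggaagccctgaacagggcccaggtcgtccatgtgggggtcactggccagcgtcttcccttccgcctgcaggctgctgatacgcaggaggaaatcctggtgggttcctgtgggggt
Olr1: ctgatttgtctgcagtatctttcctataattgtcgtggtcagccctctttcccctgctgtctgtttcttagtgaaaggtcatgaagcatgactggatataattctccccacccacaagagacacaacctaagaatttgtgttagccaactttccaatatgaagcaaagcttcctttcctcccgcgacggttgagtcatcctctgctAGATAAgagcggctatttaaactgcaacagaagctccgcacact

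The only match in either was the GATA letters AGATAA in Olr1, at positions -44 to -39 from the start, which 9.99% of all 32851 promoter windows hold on either strand. The other letters searched were a PPAR element (the DR1 form, in 0.338% of windows), a sterol regulatory element (TCACNCCAC, 1.05%), an ETS core (CCGGAAG, 6.91%), an interferon response element (2.98%), a FOXO element (GTAAACA, 3.17%), a kappaB element (1.41%) and an RBPJ element (GTGGGAA, 5.42%). Of the 6 windows listed for 4 of the genes (Cd36, Olr1, Stab1 and 3 starts of Pparg), 1 other held a match, the RBPJ letters at -114 to -108 from the start numbered 3 of Pparg. A match is a description of the letters and not a bound site.

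Scarb1 encodes SR-BI, the high density lipoprotein receptor that also moves LDL across endothelium. It measured 50.5 and 50.5 CPM in control and 52.2 and 54.1 CPM in conditioned medium. The conditioned medium values were slightly higher and the log2 fold change was 0.07 ± 0.06, not called (edgeR adjusted p = 0.450), with a 95% interval of -0.05 to 0.20. Scarf1, a receptor for acetylated LDL and dying cells first found in endothelium, measured 76.4 and 79.0 CPM in control and 76.0 and 79.4 CPM in conditioned medium. The groups overlapped, and the 95% interval of its log2 fold change ran from -0.11 to 0.11 (edgeR adjusted p = 0.990).

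Cd36, the fatty acid translocase and a class B scavenger receptor like Scarb1, had 0 and 2 counts in control and 2 and 2 in conditioned medium. Its highest library stood at 0.145 CPM. All 4 values lay under 3 counts, so no fold change is given.

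The other genes of the scavenger receptor classes were mostly silent in these cells. Of 15 listed, 9 were below the count filter, among them 5 with 0 counts in all libraries, such as Msr1 and Marco of macrophages. Of the 6 tested 1 was called, or 16.7%, against 16.8% of all genes tested. This was Colec12, a collectin receptor for oxidised LDL. Colec12 rose from 60.6 ± 0.855 to 70.9 ± 2.82 CPM (mean ± SD, n = 2, edgeR adjusted p = 0.00924), a log2 fold change of 0.22 ± 0.06. DESeq2 did not call it, nor did edgeR when conditioned medium replicate 1 or 2 was left out (adjusted p = 0.137, 0.178 and 0.0753). Its lowest value among the alternatives was 0.00226. The median of the 6 was 0.01. Cd68, the marker that also named the macrophages, measured 220 and 248 CPM in control and 241 and 249 CPM in conditioned medium and was not called (edgeR adjusted p = 0.429). Leaving out control replicate 2 gave 0.16 on the log2 scale and a call (edgeR adjusted p = 0.00251), whereas leaving out control replicate 1 gave -0.02.

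Cd300lg had the largest fold change of the 3 called among the 10 genes. It encodes CLM-9, also known as nepmucin, a vascular receptor with an immunoglobulin domain and a mucin-like stalk that supports lymphocyte binding, and it lies on chromosome 11, 102041511 to 102055617. Its counts were 313 and 370 in control and 183 and 187 in conditioned medium, which scaled to 21.2 and 25.3 CPM against 13.2 and 10.4 CPM. The lowest control value was above the highest conditioned medium value. The replicates differed by 0.26 within control and by 0.35 within conditioned medium on the log2 scale, against counting errors of 0.11 and 0.15. The log2 fold change was -0.997 ± 0.12 (edgeR adjusted p = 7.91e-06), a 1.996-fold fall with a 95% interval of 1.68 to 2.38. Only 1.36% of all genes tested had a larger absolute log2 fold change. It was called in all 13 alternatives, with log2 fold changes from -1.16 (without conditioned medium replicate 1) to -0.82 (without conditioned medium replicate 2) and adjusted p up to 0.0104.

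The other CD300 genes lie in a separate cluster and 6 of 7 had 0 counts in every library. The exception, Cd300lb, an activating receptor of myeloid cells, measured 1.36 and 1.71 CPM in control and 3.18 and 2.39 CPM in conditioned medium. Its log2 fold change of 0.83 ± 0.29 was opposite in sign to that of Cd300lg and was not called (edgeR adjusted p = 0.0526). It was called with a filter at 1 CPM, a replicate block, a robust spread or without control replicate 2 (edgeR adjusted p = 0.0476, 0.0290, 0.0405 and 0.0446, its alternatives reaching 0.366, with none given by DESeq2).

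Gpihbp1, the anchor that moves lipoprotein lipase to the capillary lumen, was also lower. It lies on chromosome 15, 75596630 to 75598213. It measured 103 and 109 CPM in control and 87.1 and 81.9 CPM in conditioned medium, with no overlap. The log2 fold change was -0.33 ± 0.05 (edgeR adjusted p = 1.99e-04), with a 95% interval of -0.44 to -0.22. Without conditioned medium replicate 2 it was -0.28 and the call was lost (edgeR adjusted p = 0.0537, with alternatives down to 7.48e-09).

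The lipase that Gpihbp1 binds was hardly expressed by the cells themselves: Lpl had 0 and 2 counts in control and 2 and 5 in conditioned medium, and Lipg, endothelial lipase, had 5 and 2 against 8 and 7. Of 14 genes for lipases and their regulators 7 were tested, 1 rose and 1 fell, with a median log2 fold change of 0.03. Calls made up 28.6% of the 7, against 16.8% of all genes tested. Angptl4, a secreted inhibitor of lipoprotein lipase, fell from 41.5 ± 4.496 to 29.1 ± 1.22 CPM (-0.51 ± 0.08, edgeR adjusted p = 1.55e-04). Furin, a protease that cleaves such inhibitors and lipases, rose from 120 ± 6.66 to 164 ± 0.335 CPM (0.45 ± 0.05, edgeR adjusted p = 2.40e-06). Both were called in all 13 alternatives.

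**Figure D2:**
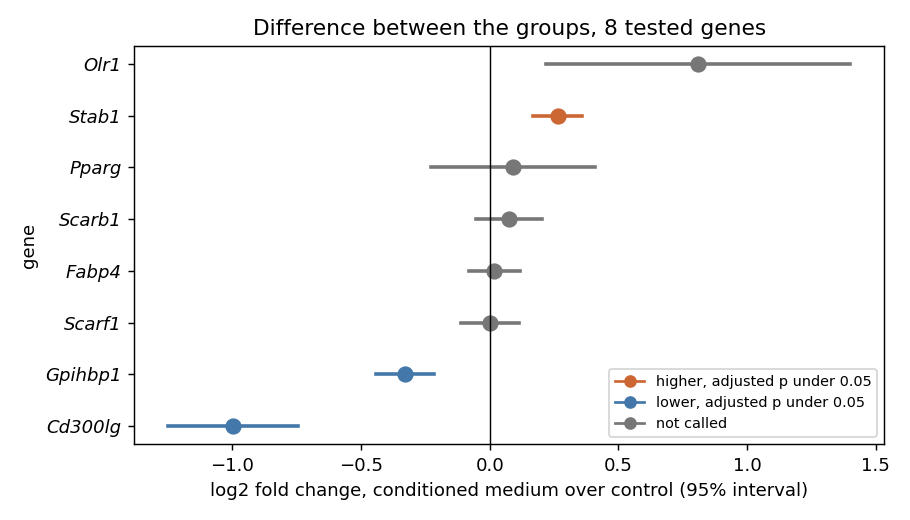
Log2 fold change of the 8 tested genes, conditioned medium over control, with its 95% interval from edgeR's quasi-likelihood fit. Cd300lg and Gpihbp1 lie below 0 and Stab1 above 0 with intervals clear of it, as is that of Olr1, which was not called after adjustment.

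Fabp4, the lipid chaperone best known from fat cells and also made by endothelium, lies on chromosome 3, 10204342 to 10208616. It measured 825 and 761 CPM in control and 774 and 831 CPM in conditioned medium. The groups overlapped, and the log2 fold change was 0.02 ± 0.05 (edgeR adjusted p = 0.850), with a 95% interval of -0.08 to 0.12. The replicates of each pair differed by 0.12 and 0.10 on the log2 scale, each beyond a counting error of 0.02.

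Fabp5, the epidermal paralogue that endothelium also uses, lies on the same chromosome at 10012585 to 10016610 and had 1 and 0 counts in control and 1 and 4 in conditioned medium. Only conditioned medium replicate 2, at 0.222 CPM, exceeded 3 counts. Of the principal Fabp5 transcript 41.3% matched 2 other annotated genes, Gm6166 and Gm14328, at 95% identity or more over at least 50 bases, and the sources used here do not say how reads matching several genes were counted. No such match was found between Fabp5 and Fabp4. Their coding sequences were identical at 61.9% of 396 aligned positions, with a longest identical run of 12 bases. The 60-base window in which they were most alike is shown, with the 16 differing bases in capitals, from coding base 55 of Fabp4 and 61 of Fabp5.
Fabp4: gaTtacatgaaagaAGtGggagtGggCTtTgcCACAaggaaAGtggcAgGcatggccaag
Fabp5: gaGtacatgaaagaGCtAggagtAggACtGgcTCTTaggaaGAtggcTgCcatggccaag

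No further gene of the family was above the filter. Of 11 other intracellular lipid binding proteins 5 had 0 counts in all libraries, and Fabp3, the heart form, had 4 and 2 counts in control and 2 and 4 in conditioned medium. Fabp9, Pmp2 and Fabp12, which lie within 100 kb of Fabp4, had at most 4 counts, so Fabp4 was the only gene of its cluster above the filter.

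Around these carriers, several genes of fatty acid storage and oxidation were higher. Of 24 listed genes for fatty acid uptake and trafficking 18 were tested, of which 7 rose, 1 fell and 10 were not called, with a median of 0.17. Calls made up 44.4% of the 18, against 16.8% of all genes tested. Dgat2, which makes the final step of triglyceride synthesis, rose 2.01-fold, from 5.69 ± 0.186 to 11.4 ± 0.503 CPM (edgeR adjusted p = 4.78e-05), and was called in all 13 alternatives. Plin2, the lipid droplet coat, rose from 105 ± 2.41 to 132 ± 3.85 CPM and Cpt1a, the entry enzyme of mitochondrial fatty acid oxidation, from 147 ± 0.266 to 185 ± 1.97 CPM. These were log2 fold changes of 0.33 ± 0.05 and 0.33 ± 0.05, also called throughout. Hilpda, a lipid droplet protein induced by hypoxia, rose by 0.53 ± 0.12 (edgeR adjusted p = 0.00410). Without conditioned medium replicate 2 it stood at 0.35 and was not called (edgeR adjusted p = 0.222), nor was it by DESeq2 (0.0604), while the lowest adjusted p of its alternatives was 2.03e-04.

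Rises called in fewer alternatives were those of Dgat1 (0.36 ± 0.12), Plin3 (0.19 ± 0.05) and Slc27a1, a fatty acid transport protein (0.25 ± 0.07). None of the 3 was called by DESeq2 or with conditioned medium replicate 1 or 2 left out. Slc27a1 and Dgat1 also lost their calls without control replicate 1, where Slc27a1 stood at 0.13 (edgeR adjusted p = 0.221). Over the alternatives the highest adjusted p were 0.419 for Dgat1, 0.179 for Plin3 and 0.221 for Slc27a1. Dgat1 was at 0.23 without conditioned medium replicate 1 and was also not called by limma-voom, with library totals or with no count filter. The gene that fell was Cav1, the coat protein of caveolae, from 397 ± 13.03 to 316 ± 6.74 CPM (-0.33 ± 0.04, edgeR adjusted p = 1.97e-05).

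Lipoprotein receptors and transcytosis genes showed 3 rises and 3 falls among 8 tested of 15 listed, with a median of 0.14. Calls made up 75% of the 8, against 16.8% of all genes tested, in a list chosen with earlier results of these data known. Cav1 is also counted in the list of fatty acid uptake and trafficking. Lrp1, a large endocytic receptor for lipoprotein remnants and many other ligands, rose by 0.31 ± 0.05 on the log2 scale, from 1127 ± 67.3 to 1402 ± 4.05 CPM (edgeR adjusted p = 5.40e-05). The falls were in caveolar Cav1 and Cavin1 (-0.25 ± 0.04) and in Dock4 (-0.14 ± 0.04), a partner of SR-BI in LDL transcytosis. Without conditioned medium replicate 2 Cavin1 and Dock4 lost their calls, Dock4 also without replicate 1 and in DESeq2 (highest adjusted p 0.0837 and 0.406). Lrp1 and Cav1 kept theirs in all 13 alternatives.

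Pparg itself was low, on 116 and 102 counts in control and 100 and 153 in conditioned medium, or 7.86 and 6.99 CPM against 7.22 and 8.49 CPM. The groups overlapped, the log2 fold change was 0.09 ± 0.15 (edgeR adjusted p = 0.742), and its 95% interval of -0.23 to 0.41 is the widest of the genes not called except Olr1. Of 22 listed PPAR receptors, partners, coregulators and target genes 18 were tested, 4 rose, 1 fell and 13 were not called, with a median of 0.08. Calls made up 27.8% of the 18, against 16.8% of all genes tested. The targets did not move one way: Plin2 and Cpt1a rose and Angptl4 fell, all counted above as well. Acaa2, a β-oxidation thiolase, rose by 0.32 ± 0.11 (edgeR adjusted p = 0.0414). It was not called by DESeq2, with no count filter, or with control replicate 2 or either library of conditioned medium left out, where it stood at 0.21 without control replicate 2 (adjusted p from 0.00332 to 0.325 over the alternatives). Fabp4, itself a classical PPARγ target, was not called, as given above.

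**Figure D3:**
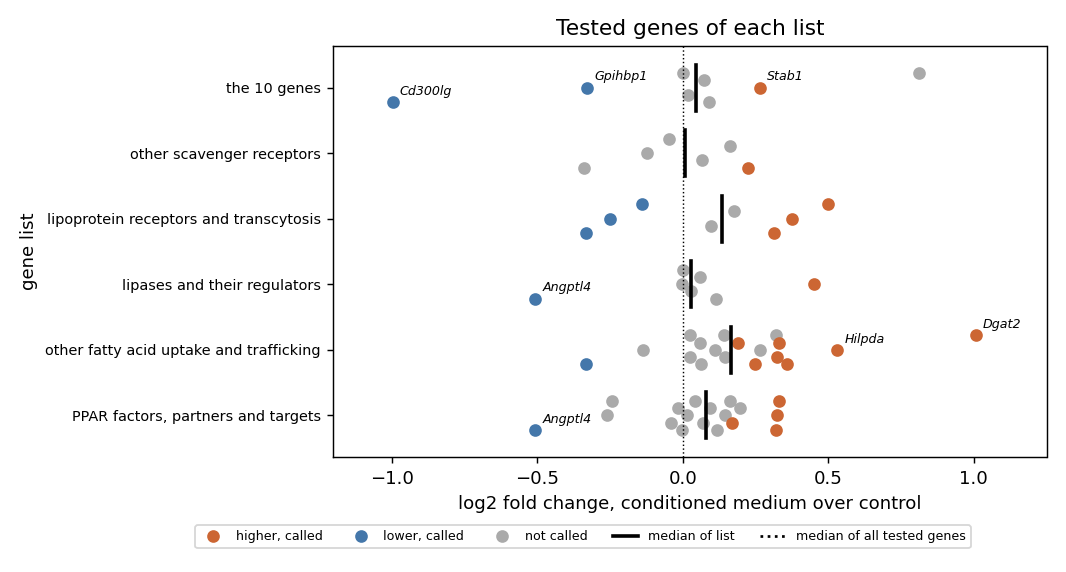
Log2 fold change of each tested gene, conditioned medium over control, in the 10 genes and in 5 lists of related genes. Orange and blue points were called higher and lower, grey points were not called, black bars are list medians and the dotted line is the median of all genes tested. Some genes are in more than 1 list. In the fatty acid list 16 of 18 points lie above 0.

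Neighbours on the chromosome were examined within 100 kb of each gene. Of 33 tested 8 were called, against 16.8% of all genes tested. Scarf1 had 9 tested neighbours, 1 called higher and 1 lower, Scarb1 3 with 1 higher and Pparg 2 with 1 lower. The largest called change of these was in Slc43a2 near Scarf1, which fell by 0.73 on the log2 scale (edgeR adjusted p = 1.95e-08). Slc43a2 was not followed in the alternatives. Of 10 neighbours of Cd300lg 4 were tested and 0 were called by edgeR or DESeq2, with 1, Dusp3, at an unadjusted p under 0.05. Of 4 neighbours of Gpihbp1 2 were tested and 0 were called by edgeR or DESeq2, with 0 at an unadjusted p under 0.05. Olr1 lies in a cluster of C-type lectin genes, and 2 of its 4 tested neighbours were called. These were Clec1a and Clec9a, which fell by 0.53 and 0.64 on the log2 scale (edgeR adjusted p = 1.22e-07 and 1.26e-05), against the higher value of Olr1. Both falls were called in all 13 alternatives. Stab1 had 2 called neighbours of 7 tested, Nt5dc2 (0.36), which shares exon bases with it, and Nisch (0.25), both higher. Over all genes tested 16.8% were called. Nt5dc2 lost its call without conditioned medium replicate 2 and Nisch without replicate 1 (edgeR adjusted p = 0.0753 and 0.0522, the lowest alternatives being 4.52e-05 and 4.78e-08).

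The genes whose levels ran closest to those of each called gene across the 4 libraries were found by Euclidean distance between centred log2 CPM values. For Cd300lg they were Prrt2, Gm4890 and Syt4, at distances of 0.14 to 0.21, all under 3 CPM. For Stab1 they were Tmem184b, 0610009B22Rik and Scamp5, at 0.018 to 0.021, and for Gpihbp1 they were Elmo1, Mamld1 and Mterf4, at 0.018 to 0.031. With 4 libraries in 2 groups such likeness is a description only.

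**Figure D4:**
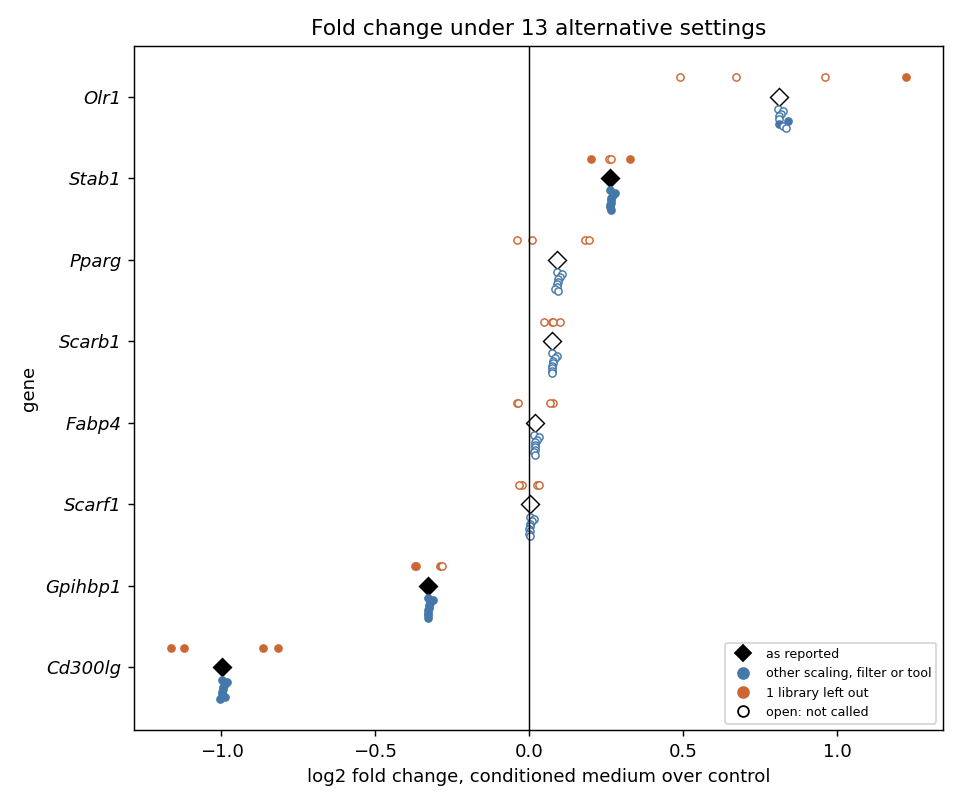
Log2 fold change of the 8 tested genes as reported (black diamonds), under another scaling, filter, block or tool (blue) and with 1 library left out (orange), filled where called. Cd300lg stays between -1.16 and -0.82 and Olr1 spreads from 0.49 to 1.22.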

How the data were processed

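Total RNA (Zymo MicroPrep, TruSeq RNA kit V2, per the labels' protocols) gave raw gene counts deposited by the authors; per the submitters' processing notes STAR 2.5.2b, featureCounts, Subread 1.4.6-p1 and mm10 were used. The sources used here name no counting settings and no batches. Of 27179 rows 1904, holding 6.31% of counts, matched no RefSeq gene (GRCm38.p6) and stayed in the fit under the deposited ID.

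Counts were filtered (edgeR filterByExpr, minimum count 10, total 15), scaled by TMM and tested with edgeR 4.0.16 (quasi-likelihood, two-sided, no block, Benjamini-Hochberg over all 13897 genes) in R 4.3.3. SEs were derived from the fold change and the F statistic. CPM are TMM-scaled. Lengths came from GENCODE M21. Scripts were tested on simulated data. Alternatives used other scalings, filters, a replicate block, robust spread, DESeq2 1.42.0, limma-voom 3.58.1 and 1 library left out.

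The members and lists were chosen with earlier results of these data known, so their shares of calls beside that of all genes are descriptions only. Beyond the members, up to 3 called genes with the largest absolute change in each list, or, in lists without a call, the gene of smallest p, and the 3 nearest profiles of each called member were named. Other genes named, such as Lrp1, Slc27a1, Plin3, Cavin1, Dock4, Acaa2, Stab2, Lpl, Lipg and the chromosomal neighbours, were chosen after their values were seen. Some called genes of the lists are counted but not reported here by name.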

Additional observations from a re-analysis of the deposited data

How the results depend on the processing

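Cd300lg kept its direction and call in all 13 alternatives, Gpihbp1 in 12 and Stab1 in 11. Over all genes DESeq2 called 918 against 2330, and leaving out 1 library gave 569 (without conditioned medium replicate 2) to 3107 (without control replicate 2). Of the members 3 were called, and 1 to 4 with 1 library left out, 1 without conditioned medium replicate 2. The replicate block called 2671 genes and 4 members, adding Olr1. Replicate numbers gave no sign of pairing (correlation of within-pair differences -0.05 over 9635 genes). Signs turned in genes that were not called: Scarf1 was at -1.56e-04 with the replicate block and from -0.033 to 0.032 with 1 library left out, at -0.022 without control replicate 1. Fabp4 ran from -0.039 to 0.078, Pparg from -0.041 to 0.19 and Cd68 from -0.018 to 0.16 with 1 library left out. Of 520 values for 40 genes, 455 kept their direction and their side of the threshold. Leaving out a library leaves an arm of 1, assumed to vary like the other group. The alternatives for Clec1a, Clec9a, Nt5dc2 and Nisch were chosen after seeing the data. Depth limits Olr1, Pparg, Cd36 and Fabp5, with 153 counts or fewer a library.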

Other observations

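Cd300lg and Gpihbp1 are known as capillary genes. None of the 4 other capillary or sinusoidal genes tested was called lower, beside 8.23% of all genes tested. At that share 4 genes are too few to say anything about such genes as a group. Of these Btnl9 had 33 counts or fewer a library, and 4 further listed genes were below the filter. Aqp1, a water channel of capillary endothelium, rose from 20.8 ± 0.859 to 35.1 ± 0.387 CPM (mean ± SD, n = 2; log2 fold change 0.75 ± 0.08, edgeR adjusted p = 1.69e-06). Lyve1 stood at 2015 CPM in control and 2025 CPM in conditioned medium and was not called (edgeR adjusted p = 0.936). Of 4 lymphatic markers tested 1 was called, Pdpn, podoplanin of lymphatic endothelium. It rose by 0.73 on the log2 scale (edgeR adjusted p = 4.29e-04), and Lyve1, Flt4 and Reln were not called. Of 3 artery markers tested 1 was called, Dll4, a Notch ligand of arteries, which fell by 0.22 (edgeR adjusted p = 0.00444). Efnb2 (0.13) and Fbln5 (-0.08) were not called. The share called over all genes tested was 16.8%. The call of Dll4 was absent in DESeq2 and without conditioned medium replicate 1 or 2 (adjusted p = 0.0683, 0.0898 and 0.121, with a lowest alternative of 6.23e-04). Of 11 general endothelial markers tested 4 were called, 2 higher and 2 lower, or 36.4%, against 16.8% of all genes tested. Among these Eng, a TGFβ co-receptor, rose by 0.32, and Kdr, the main VEGF receptor, fell by 0.16 (edgeR adjusted p = 0.0123). The call of Kdr was not made by DESeq2 or by either fit lacking 1 of the conditioned medium libraries.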
